A study of Mus musculus with 9 samples.

Results

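Interferon response genes encode the factors, sensors and antiviral proteins that a cell switches on when it meets an interferon or foreign nucleic acid. The group described here holds 39 genes named by symbol, and 38 of them were found among the 23309 genes of the deposited files. The symbol Ifi27 was not found. A gene was tested where its mean over the 9 libraries reached 1 FPKM (sequenced fragments scaled for the length of the transcript and the depth of the library), which 29 of the 38 genes did, against 10497 of all genes.

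The libraries came from D2.0R cells, a mouse mammary tumour line that serves as a model of tumour dormancy. Cells were grown in low-glucose medium with reduced serum on surfaces coated with BME, a basement membrane extract sold as Cultrex, on which they stay solitary and quiescent, or on BME + COL, the same extract with type I collagen, on which they proliferate. RNA was sequenced from 3 replicates (a, b and c) of each of BME day 1, BME day 5 and BME + COL day 5, so that the collagen matrix was sampled at the later time only. All 9 libraries are of this 1 line, without an added interferon or another agent.

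Type I interferons bind a receptor whose kinases JAK1 and TYK2 phosphorylate STAT factors, and STAT2 joins IRF9 in a complex that binds interferon-stimulated response elements (ISREs) in front of its target genes. RNA sensors such as RIG-I and MDA5 recognise viral or misplaced RNA and, through the adaptor MAVS, activate IRF3 and IRF7, which drive interferon genes. Many of the induced proteins block viral entry, translation or replication, and others damp the signal.

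The ISRE is the sequence feature that links many of these genes, so the upstream windows of 6 of them are shown. Isg15 and Bst2 were lower on BME day 5 than on BME + COL day 5, Gbp2 and Parp14 were higher, and Ifit1 and Usp18 differed between libraries of 1 group. Each line gives the stretch around the motif on the strand of the gene, 5′ to 3′, in the mouse build NCBIM37 (mm9), upstream of the start of the gene's most abundant RefSeq transcript in the files. Capitals mark matches, on either strand, to the core of the ISRE, searched as GAAA, any 2 bases (NN) and GAAA again. A match on the opposite strand reads TTTC, NN and TTTC.
Isg15 (chr4:155574964-155575025, minus strand): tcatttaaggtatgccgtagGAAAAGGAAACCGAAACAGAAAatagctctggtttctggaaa
Bst2 (chr8:74061466-74061521, minus strand): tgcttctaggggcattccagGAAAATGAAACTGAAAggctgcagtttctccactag
Gbp2 (chr3:142283548-142283597, plus strand): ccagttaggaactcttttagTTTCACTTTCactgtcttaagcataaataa
Parp14 (chr16:35871493-35871542, minus strand): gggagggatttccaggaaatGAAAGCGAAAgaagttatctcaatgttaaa
Ifit1 (chr19:34715255-34715323, plus strand): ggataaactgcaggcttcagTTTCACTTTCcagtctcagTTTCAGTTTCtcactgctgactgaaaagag
Usp18 (chr6:121195821-121195894, plus strand): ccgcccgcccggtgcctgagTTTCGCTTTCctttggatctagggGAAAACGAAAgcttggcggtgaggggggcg

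In Isg15 3 overlapping matches ran from 78 to 57 bases before the transcript start, and in Bst2 2 overlapping matches from 165 to 150. The single matches of Gbp2 and Parp14 lay 59 to 50 and 54 to 45 bases before it. Of the 300-base windows in front of the 38 genes, 15 (39.5%) held the core, against 900 of 23245 windows (3.87%) over all genes. The shorter GAS motif TTCNNNGAA, which reads the same on both strands in its fixed letters, was found in 8 of the 38 windows (21.1%) and in 8.17% of all windows. Of the 6 genes shown, Bst2 and Parp14 held both motifs, and in Bst2 they overlapped. Both directions occurred with and without the motif. Of the 11 tested genes with an ISRE core, 4 were higher and 2 lower on BME day 5 than on BME + COL day 5. Of the 18 without it, 7 were higher and 6 lower. Over all genes tested, 30.3% were higher and 45.3% lower, and the split by motif was not tested. A match describes the letters of the window only.

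Before the comparisons, 2 libraries need to be set apart. In BME day 1 replicate c all 29 tested interferon response genes had the highest level of the 3 replicates, against 61% of all genes tested and 53 of 62 other interferon pathway genes tested. The median gap of this library to the mean of the other 2 was 0.60 on the log2 scale for the 29 genes and 0.08 for all genes, and 16 of the 29 (55.2%) had a gap above 0.5, against 3.89% of all genes. In BME day 5 replicate b 21 of the 29 genes (72.4%) had the lowest level of their group, close to the 74.2% of all genes, with a median gap of -0.37 against -0.24. Its FPKM values also summed to 287611, below the 347339 to 423289 of the other 8 libraries. The 3 BME + COL libraries lay close together, with a median standard deviation over the 29 genes of 0.07 (log2), against 0.35 on BME day 1 and 0.28 on BME day 5. Aligned sequence came to 7.21 to 9.37 gigabases per library.

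**Figure D1:**
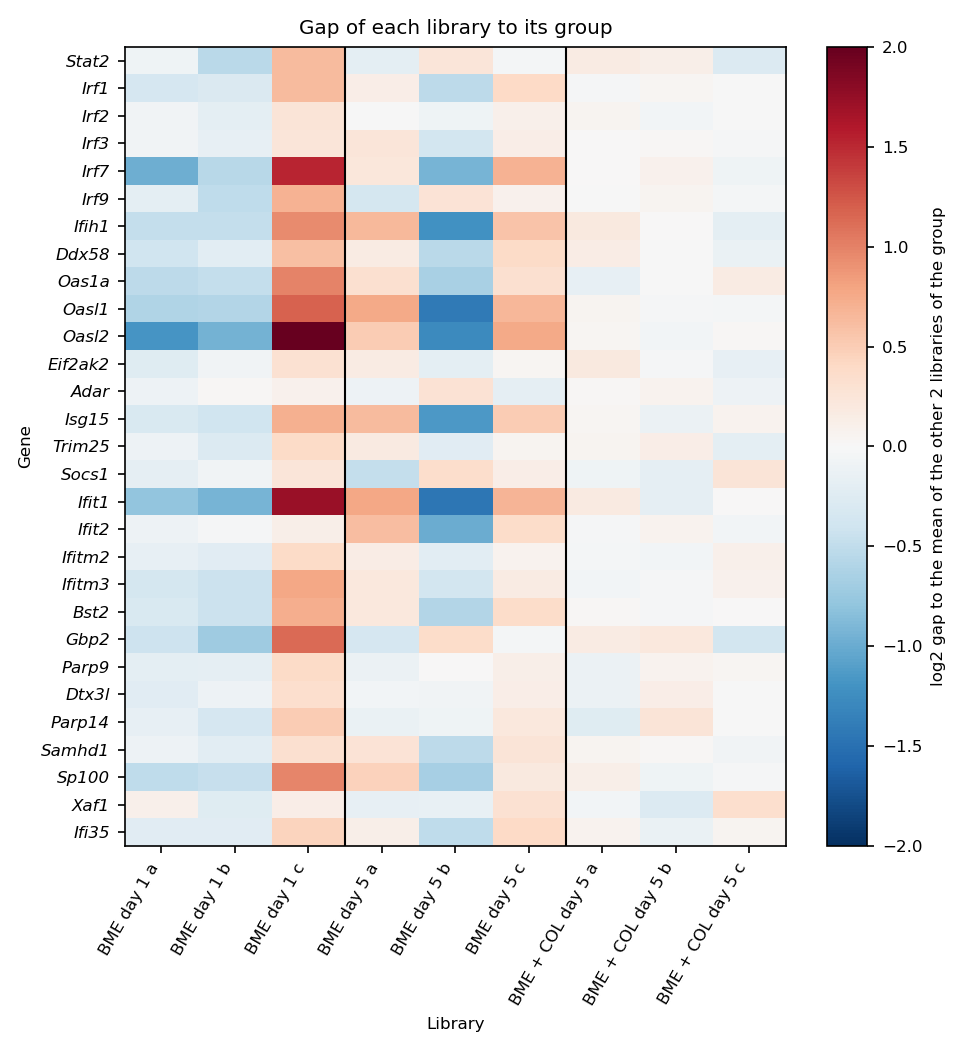
Rows are the 29 tested interferon response genes and columns the 9 libraries, and colour gives the log2 gap of a library to the mean of the other 2 libraries of its group (red above, blue below, scale cut at 2). The column of BME day 1 replicate c is red in all 29 rows, that of BME day 5 replicate b is blue in most, and the 3 BME + COL columns are pale.

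The genes with the widest gaps in BME day 1 replicate c are classical interferon targets, and these were singled out after their values were seen. Oasl2, a member of the oligoadenylate synthetase-like family, stood at 0.598 and 0.680 FPKM in replicates a and b and at 3.11 in c. Ifit1, which binds foreign capped RNA and blocks its translation, stood at 0.60, 0.555 and 2.14 FPKM. Usp18, the protease that removes ISG15 from proteins and damps receptor signalling, was under the filter at 0.165, 0.249 and 0.942 FPKM. In each of these the level of replicate c was above those of the other 2 by more than their own difference. With c in the group, neither Oasl2 nor Ifit1 was called in any comparison.

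The summed level of 13 haematopoietic marker genes was also highest in that library, at 10.2 FPKM against 6.92 and 7.75 in replicates a and b. The sum was carried by Cd14 (6.43 FPKM in c) and Cd68 (3.44), while 11 of the 13 were under 1 FPKM in every library and Cd3e and Emr1 were at 0 in all of them. Ptprc, the pan-leukocyte marker, did not pass 0.0763 FPKM. The part of these cells in the values was not tested. Epithelial markers were led by Krt8 and Krt18. Their sum was 1441 to 1604 FPKM on BME day 1 and 776 to 1154 on BME day 5. On BME + COL day 5 it was 2348 to 2455 FPKM. The sum thus differed between the BME days as well as between the matrices. Krt8 fell from BME day 1 to BME day 5 by a log2 difference of -0.76 (adjusted p = 0.00471). Cldn4, Cldn7 and Esrp1, all under 1 FPKM, went the other way between the day 5 groups. A list of 10 fibroblast markers summed to 23.5 to 31.6 FPKM on BME day 1, 50.7 to 62.4 on BME day 5 and 4.68 to 4.89 on BME + COL day 5, with Pdgfra, Pdgfrb and Postn leading and 6 of the 10 under 1 FPKM throughout. Col1a2 and Col3a1, both under 1 FPKM, went the other way between the day 5 groups. Their means were 0.035 and 0.0204 FPKM on BME day 5 and 0.105 and 0.0574 with collagen. The part of either list in the differences between the matrices was not tested.

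Interferon genes themselves were nearly silent. Of 14 listed, 12 were found and none passed the filter. Ifnb1 and Ifng, which encode interferon beta and gamma, did not pass 0.0638 and 0.0188 FPKM in any library, and the highest value of all was 0.449 FPKM, of Ifne, an epithelial type I interferon. The interferon response genes themselves spanned a wide range. Over the 9 libraries, 9 of the 38 had a mean under 1 FPKM, 15 between 1 and 5, 10 between 5 and 20, and 4 from 20 FPKM upwards, namely Ifitm2 (104), Bst2 (65.3), Ifitm3 (33.4) and Samhd1 (20.2). The 9 genes under the filter were Dhx58, Usp18, Ifit3, Ifitm1, Rsad2, Mx1, Mx2, Gbp3 and Ifi44. Among these Mx1 and Mx2, dynamin-like GTPases that trap viral nucleocapsids, did not exceed 0.0389 and 0.126 FPKM. The antiviral Rsad2 (viperin) reached 0.716 FPKM in BME day 5 replicate a.

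The matrix comparison at day 5 sets quiescent against proliferating cells at the same age of culture. Interferon response genes went both ways. On BME day 5, 11 of the 29 (37.9%) were higher than on BME + COL day 5, 8 (27.6%) were lower and 10 were not called, at an adjusted p under 0.05. Of all genes tested 30.3% were higher and 45.3% lower, so the share of higher genes was near the background and that of lower genes below it, and the list itself was not tested. In 12 of the 29 all BME day 5 libraries lay above all collagen libraries (32.1% of all genes) and in 9 below them (48.1%). The median difference of the 29 was 0.09 on the log2 scale, against -0.18 over all genes. In bulk RNA, fewer cells of a kind and less RNA in each cell cannot be told apart.

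These shares depended on the scaling. With each library scaled to the same sum (TPM) 15 of the 29 were higher (51.7%) and 5 lower (17.2%), against 46.3% and 31.7% of all genes. The median of all genes moved from -0.18 to 0.16 and the share of higher genes among all called genes from 40.1% to 59.4%, so the background shifted with the count. Leaving out BME day 5 replicate c, or BME + COL replicate b or c, left 7 of the 29 higher (24.1%), below the 28%, 28.4% and 27.8% of all genes in these 3 fits. BME day 1 replicate c counts in this contrast through its spread only. Without it the log2 differences were the same, with 12 higher (41.4%, against 30.9% of all genes) and 8 lower (27.6%, against 45.7%). Irf9, Irf7, Ddx58, Eif2ak2, Bst2 and Sp100, whose calls other single libraries could end, then had adjusted p of 0.00348 to 0.0258. No call named below changed its sign in any alternative run, while Irf2 and Ifi35, which were not called, turned from -0.04 and -0.03 to 0.31 and 0.31 as TPM.

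**Figure D2:**
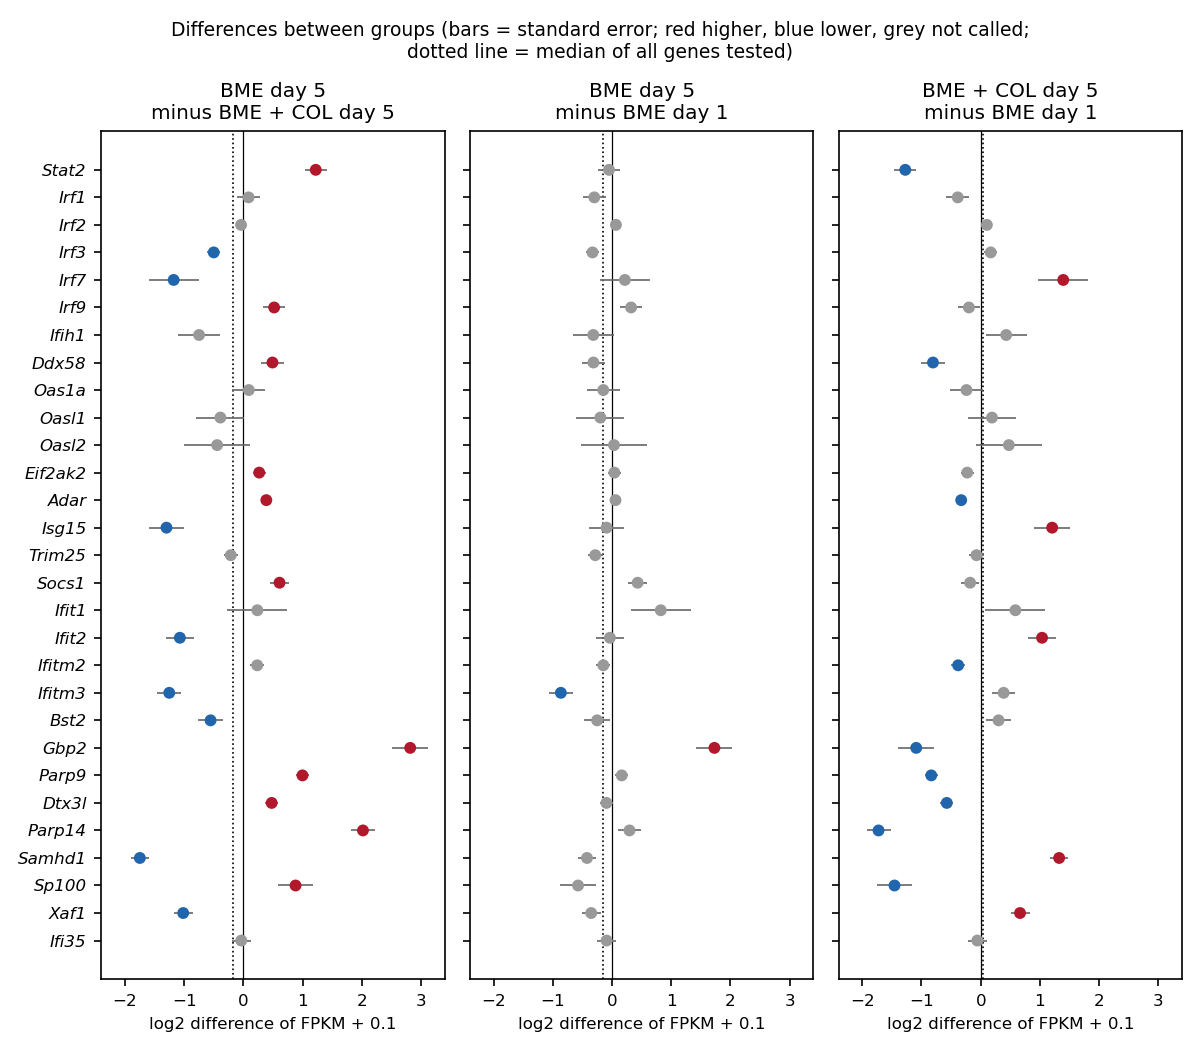
Points are the log2 differences of FPKM + 0.1 for the 29 tested genes in the 3 comparisons, bars are standard errors, red and blue points passed an adjusted p of 0.05 and the dotted line is the median of all genes tested. In the first panel Gbp2 lies furthest to the right at 2.82 and Samhd1 furthest to the left at -1.75, whereas in the second panel only Gbp2 and Ifitm3 are coloured.

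Among the 6 STAT and IRF factors, both directions occurred, and the day 5 groups did not overlap in 4, of which 2 were above and 2 below, where 32.1% of all genes lay above and 48.1% below. Stat2, the partner of IRF9 in the type I interferon complex, stood at 3.57, 2.87 and 5.00 FPKM on BME day 1 (replicates a, b and c, in this order throughout), at 3.26, 4.02 and 3.52 on BME day 5 and at 1.61, 1.56 and 1.29 on BME + COL day 5. All 3 collagen libraries lay below the 6 others. The ratio of mean levels of BME day 5 to BME + COL day 5 was 2.42 (log2 difference 1.22 ± 0.19 SE, adjusted p = 0.000229).

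Irf9, which gives the complex its DNA contact, had 3.54, 3.05 and 5.37 FPKM on BME day 1, 4.12, 5.52 and 5.07 on BME day 5 and 3.35, 3.45 and 3.29 with collagen. It was higher on BME day 5 than on BME + COL day 5 by 0.52 ± 0.19 (adjusted p = 0.0283), and the 2 groups did not overlap. This call was lost when any of 5 single libraries was left out (BME day 5 b or c, or any with collagen), with log2 differences of 0.43 to 0.54 and adjusted p of 0.0625 to 0.0821.

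Irf7, the master factor of type I interferon production, went the other way. Its levels were 0.411, 0.523 and 1.53 FPKM on BME day 1, 0.938, 0.510 and 1.19 on BME day 5 and 2.02, 2.09 and 1.93 with collagen, where all 3 libraries were above the rest. BME day 5 was lower by 1.18 ± 0.42 (adjusted p = 0.0278), and the call was lost without BME day 5 replicate b or any 1 of the collagen libraries (log2 differences of -1.20 to -0.87, adjusted p of 0.0613 to 0.0880) and as TPM (-0.91, adjusted p = 0.0732). Irf7 was read on 3 transcripts that overlap in most of their length.

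The constitutive factor Irf3, which sensors activate directly, stood at 11.5, 10.9 and 13.2 FPKM on BME day 1, 10.5, 7.92 and 10.0 on BME day 5 and 13.4, 13.5 and 13.2 with collagen. It was lower on BME day 5 than with collagen by a log2 difference of -0.50 ± 0.11 (adjusted p = 0.00263). As TPM the difference was -0.16 and not called (adjusted p = 0.0524).

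The remaining pair gave no call on this contrast. Irf1, an activator that interferon gamma induces, had 12.3, 12.6 and 19.3 FPKM on BME day 1, 12.4, 9.17 and 14.1 on BME day 5 and 10.9, 11.2 and 10.9 with collagen. Irf2, its antagonist, had 7.68, 7.26 and 9.0 FPKM, then 8.31, 7.99 and 8.70, then 8.75, 8.36 and 8.55. In both the day 5 groups overlapped. As TPM both were called higher on BME day 5, Irf1 at 0.43 (adjusted p = 0.0260) and Irf2 at 0.31 (adjusted p = 0.0107).

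Of the 3 RNA sensors, Dhx58, which encodes LGP2 and modulates the other 2, stayed under the filter, at 0.211, 0.270 and 0.436 FPKM on BME day 1, 0.129, 0.112 and 0.228 on BME day 5 and 0.382, 0.514 and 0.228 with collagen. Ddx58, which encodes RIG-I, had 4.05, 4.43 and 6.49 FPKM on BME day 1, 4.22, 3.02 and 4.69 on BME day 5 and 2.95, 2.74 and 2.58 with collagen. It was higher on BME day 5 than with collagen by 0.49 ± 0.20 (adjusted p = 0.0430), and 6 single libraries could end this call (BME day 1 b, BME day 5 a or c, or any with collagen) with log2 differences of 0.36 to 0.54 and adjusted p of 0.0590 to 0.153. Ifih1, which encodes MDA5, had 1.88, 1.88 and 3.71 FPKM, then 2.56, 1.03 and 2.48, then 3.53, 3.22 and 2.94. Its day 5 groups did not overlap, yet the difference of -0.75 ± 0.35 did not pass (adjusted p = 0.0756). BME day 5 replicate b lay far below its group.

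Among the member roles with more than 1 tested gene, only in the PARP9 complex and PARP14 did all tested genes pass in the same direction. All 3 were higher on BME day 5 than with collagen, where 30.3% of all genes were. Parp9 and Dtx3l form a ubiquitin ligase and ADP-ribosyltransferase complex that promotes interferon responses, and Parp14 is a related transferase. Parp9 stood at 5.76, 5.83 and 7.56 FPKM on BME day 1, 6.71, 7.13 and 7.51 on BME day 5 and 3.32, 3.64 and 3.58 with collagen. The log2 difference of the day 5 groups was 1.00 ± 0.11 (adjusted p = 2.73e-05), and it stayed called in all 21 alternatives. Parp14, named after its values were seen, had 1.19, 1.09 and 1.65 FPKM, then 1.5, 1.54 and 1.78, then 0.276, 0.372 and 0.317, and was higher on BME day 5 by 2.02 ± 0.20 (adjusted p = 1.68e-05). Dtx3l was higher by 0.48 ± 0.11 (adjusted p = 0.00290). On NCBIM37, Parp9 (chr16:35938556-35972707, plus strand) and Dtx3l (chr16:35926601-35939113, minus strand) share 558 bases at their starts, so reads there could be given to either gene unless strand was used, which is not stated for the counting.

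Gbp2, a guanylate-binding GTPase that is strongly induced by interferon gamma, showed the largest difference of the 29 genes between the matrices. It stood at 0.809, 0.694 and 1.77 FPKM on BME day 1, 3.05, 4.25 and 3.50 on BME day 5 and 0.459, 0.471 and 0.340 with collagen. The 3 groups did not overlap. The ratio of means at day 5 was 8.51 (log2 difference 2.82 ± 0.30, adjusted p = 2.60e-05). Gbp3, of the same family and under the filter, also had its highest levels on BME day 5, at 0.199, 0.214 and 0.632 FPKM on BME day 1, 0.857, 0.821 and 1.04 on BME day 5 and 0.407, 0.389 and 0.361 with collagen.

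Of the 29 genes, the largest difference in the other direction was that of Samhd1, which cleaves the deoxynucleotides a virus needs to copy itself. It stood at 13.5, 12.8 and 16.4 FPKM on BME day 1, 12, 8.22 and 11.8 on BME day 5 and 36.4, 35.9 and 34.4 with collagen. The 3 collagen libraries held more than the highest of the 6 others by a wide margin. The log2 difference of BME day 5 to BME + COL day 5 was -1.75 ± 0.15 (adjusted p = 6.27e-06), and it stayed called in all 21 alternatives.

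Isg15, a ubiquitin-like protein that is attached to others in an infected cell, stood at 8.39, 8.07 and 13.5 FPKM on BME day 1, 12.3, 5.32 and 11.5 on BME day 5 and 23.0, 21.4 and 23.3 with collagen. The day 5 groups did not overlap, and the log2 difference was -1.30 ± 0.30 (adjusted p = 0.00308). Trim25, the ubiquitin ligase that activates RIG-I, had 12.2 ± 1.17 (SD, n = 3) FPKM on BME day 5 and 14.1 ± 1.12 with collagen and was not called. Socs1, which inhibits the receptor kinases, was higher on BME day 5 (2.78 ± 0.54 FPKM, SD, n = 3) than with collagen (1.77 ± 0.20; log2 difference 0.61 ± 0.16, adjusted p = 0.00557).

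Ifit2, which also binds RNA and inhibits translation, was lower on BME day 5 than with collagen by a log2 difference of -1.07 ± 0.24 (adjusted p = 0.00232), while the adjusted p of Ifit1 was 0.685. In Ifit1, BME day 5 ran from 0.814 FPKM in replicate b to 2.45 in a, so that the spread within the group covered the 1.29 to 1.54 FPKM with collagen. The 2 tested IFIT genes were thus called differently, which is not a test of the difference between them.

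Of the 3 tested membrane-associated restriction factors, 2 were lower on BME day 5 than with collagen (66.7%, against 45.3% of all genes). Ifitm3, which blocks the fusion of viruses in endosomes, stood at 29.5, 28.4 and 49.6 FPKM on BME day 1, 20.9, 16 and 20.5 on BME day 5 and 44.0, 44.9 and 47.1 with collagen. The log2 difference at day 5 was -1.25 ± 0.20 (adjusted p = 0.000304), with no overlap of the groups. Bst2, or tetherin, which holds budding virus to the cell surface, had 54.6, 51.5 and 88.2 FPKM, then 58.3, 40.3 and 62.6, then 78.1, 76.7 and 77.5. Its difference of -0.55 ± 0.22 passed (adjusted p = 0.0401), but 5 single libraries could end the call (BME day 5 a or b, or any with collagen), with log2 differences of -0.62 to -0.36 and adjusted p of 0.0510 to 0.122. As TPM the adjusted p was 0.289. Ifitm2, of the same small family as Ifitm3, had 108, 105 and 140 FPKM, then 113, 95.4 and 109, then 87.8, 87.2 and 93.9, and was not called between the day 5 groups (0.23, adjusted p = 0.0998), although they did not overlap. It was called higher on BME day 5 as TPM (0.58, adjusted p = 0.000257) and also when BME day 1 c (0.23, adjusted p = 0.0341) or BME day 5 b (0.31, adjusted p = 0.0306) was left out. The Ifitm genes are closely related in sequence, so their reads may have been divided between them.

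**Figure D3:**
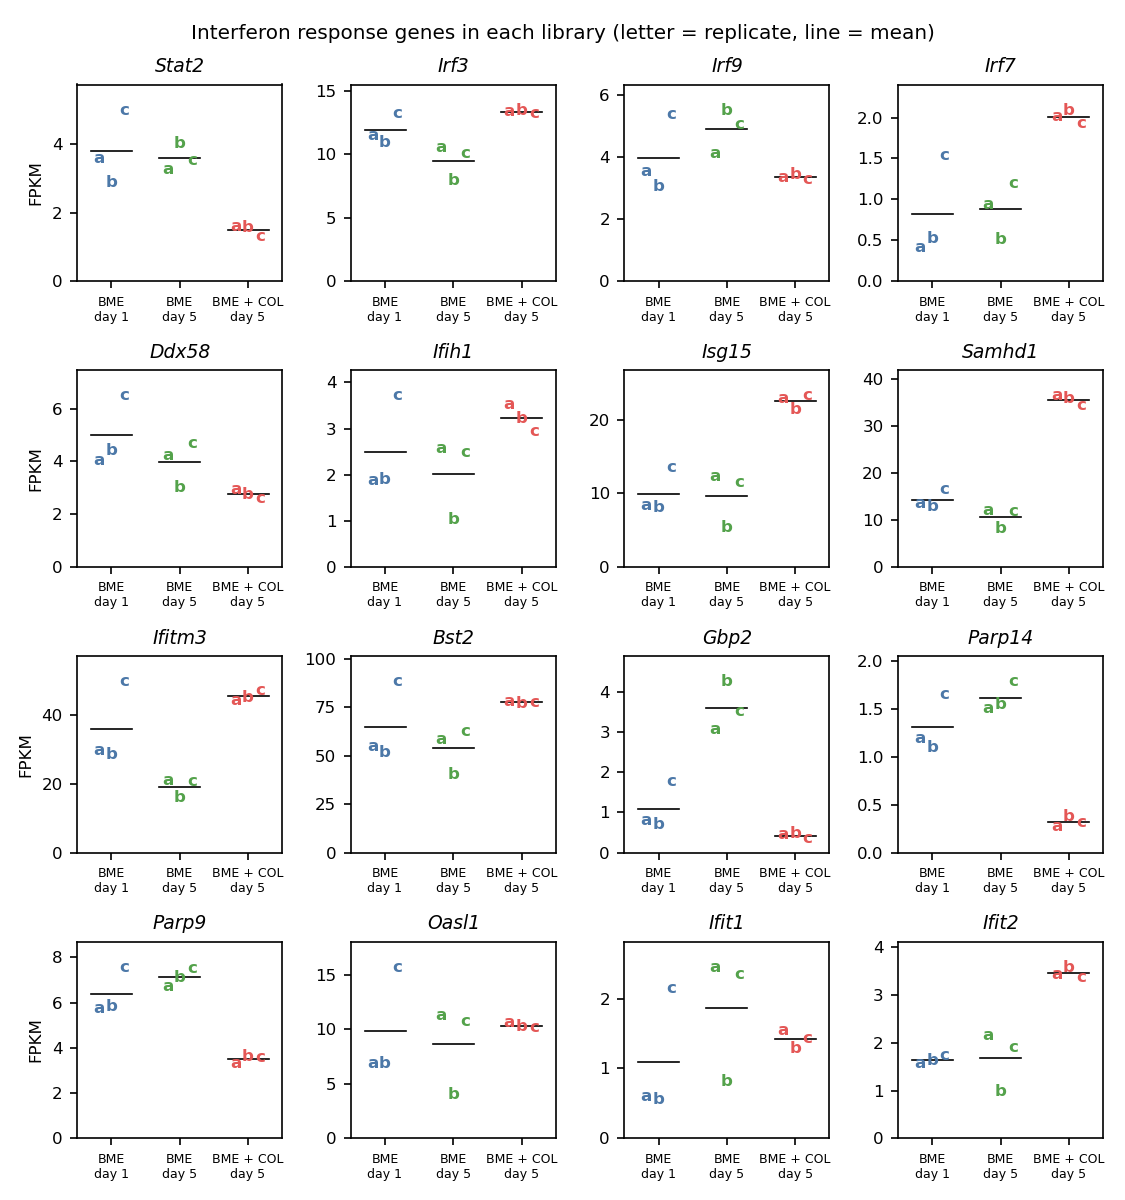
Each panel gives the FPKM of 1 gene in the 9 libraries, with the letter marking the replicate and a line at the mean of the group, on an axis from 0. In every panel the letter c of BME day 1 lies above a and b, and for Stat2, Parp9, Parp14 and Gbp2 the collagen libraries are lowest, while for Isg15, Samhd1 and Irf7 they are highest.

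The enzymes that act on double-stranded RNA were called higher on BME day 5 than with collagen in 2 of 5 cases (40%, against 30.3% of all genes). Adar, which edits adenosine in such RNA to inosine, stood at 9.11, 9.71 and 9.96 FPKM on BME day 1, 9.51, 11.4 and 9.19 on BME day 5 and 7.72, 7.88 and 7.25 with collagen, a log2 difference of 0.39 ± 0.09 (adjusted p = 0.00319). Eif2ak2, the kinase PKR that halts translation, had 6.69, 7.28 and 8.67 FPKM, then 8.32, 7.03 and 7.86, then 6.98, 6.31 and 5.92. Its log2 difference of 0.27 ± 0.11 was at the threshold (adjusted p = 0.0495) and was lost in 12 of 21 alternatives, 5 of them by leaving out BME day 1 b, BME day 5 a or c, or BME + COL b or c (0.21 to 0.27, adjusted p of 0.0709 to 0.165).

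The oligoadenylate synthetase genes were not called. Oasl1, which represses translation of Irf7, stood at 6.85, 6.89 and 15.7 FPKM on BME day 1, 11.2, 4.05 and 10.7 on BME day 5 and 10.6, 10.2 and 10.2 with collagen. The BME groups spanned the collagen values on both days. Oas1a, whose product activates the nuclease RNase L, had means of 1.75 ± 0.44 FPKM (SD, n = 3) on BME day 5 and 1.60 ± 0.13 with collagen.

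The other effectors split as well. Sp100, a component of nuclear bodies, was higher on BME day 5 by 0.88 ± 0.30 (adjusted p = 0.0221), a call that was lost without BME day 5 a or c or BME + COL b or c (0.73 to 0.87, adjusted p of 0.0501 to 0.0633). A pseudocount of 1 FPKM and quantile normalization also ended it. Over all alternatives the difference of Sp100 ran from 0.25 to 1.28, with an adjusted p of up to 0.400. Xaf1, which antagonises an inhibitor of apoptosis, was lower by a log2 difference of -1.02 ± 0.16 (adjusted p = 0.000303). Ifi35, which binds other interferon-induced proteins, had 9.30 ± 1.91 FPKM (SD, n = 3) on BME day 5 and 9.40 ± 0.47 with collagen.

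The second comparison follows the quiescent cells in time, from BME day 1 to BME day 5. Only 2 of the 29 genes were called, 1 higher (3.45%) and 1 lower (3.45%), against 9.09% higher and 22.2% lower among all genes. Gbp2 rose from 1.09 ± 0.59 FPKM (SD, n = 3) to 3.60 ± 0.61, a log2 difference of 1.73 ± 0.30 (adjusted p = 0.00448). Ifitm3 fell from 35.8 ± 11.9 to 19.1 ± 2.74 FPKM, a difference of -0.86 ± 0.20 (adjusted p = 0.0133). With only the 6 libraries of this contrast in the fit, Ifitm3 was not called (adjusted p = 0.0614). In 25 of the 29 genes the groups overlapped, in 1 BME day 5 lay wholly above BME day 1 (12.8% of all genes) and in 3 wholly below (37.1%).

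These counts changed when BME day 1 replicate c was left out. Without that library, Irf9 (0.55, adjusted p = 0.0214), Ifit1 (1.40, adjusted p = 0.0438) and Parp9 (0.29, adjusted p = 0.0334) were also higher on BME day 5, giving 4 higher (13.8%) and 1 lower, against 10.1% and 13.7% of all genes. Gbp2 was then higher by 2.11 (adjusted p = 0.000808) and Ifitm3 lower, at -0.61 (adjusted p = 0.0127). Without BME day 5 replicate b, Ifit2 became higher on BME day 5 (0.29, adjusted p = 0.0385), against -0.04 with it.

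The third comparison, BME + COL day 5 against BME day 1, changes matrix and time together, and no library had collagen at day 1. It shares its collagen libraries with the first comparison and its BME day 1 libraries with the second. On BME + COL day 5, 5 of the 29 genes (17.2%) were higher and 9 (31%) lower, against 34.2% and 31.8% of all genes. As TPM 12 were lower (41.4%), with 46.4% of all genes. The groups did not overlap in 5 genes that were above (41.6% of all genes) and 10 that were below (38.3%). Higher were Irf7 (1.39 ± 0.42, adjusted p = 0.0153), Samhd1 (1.33 ± 0.15, adjusted p = 5.66e-05), Isg15 (1.21 ± 0.30, adjusted p = 0.00590), Ifit2 (1.04 ± 0.24, adjusted p = 0.00368) and Xaf1 (0.66 ± 0.16, adjusted p = 0.00511). Irf7 was not called without BME day 1 replicate a or b (log2 differences of 1.07 to 1.21, adjusted p of 0.0580 to 0.0586).

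Lower on BME + COL day 5 than on BME day 1 were Parp14, Sp100, Stat2, Gbp2, Parp9, Ddx58, Dtx3l, Ifitm2 and Adar. Parp14 fell from 1.31 ± 0.30 FPKM (SD, n = 3) to 0.322 ± 0.05, a log2 difference of -1.73 ± 0.20 (adjusted p = 7.48e-05), and Stat2 from 3.81 ± 1.09 to 1.49 ± 0.17, a difference of -1.27 ± 0.19 (adjusted p = 0.000271). Ddx58 fell by 0.81 on the log2 scale (adjusted p = 0.00518). The call of Ifitm2 (-0.38 ± 0.12, adjusted p = 0.0184) was lost without BME + COL replicate a or b (adjusted p of 0.0578 to 0.0588). Without BME day 1 replicate c, 10 genes were higher (34.5%, against 33.2% of all genes) and 9 lower (31%, against 29.3%). Irf2 (0.19), Oasl2 (1.18), Ifit1 (1.16), Ifitm3 (0.65) and Bst2 (0.55) were then added to the 5 higher genes.

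The remaining interferon pathway genes, from lists of receptors, adaptors, regulators and further induced genes, were tested for 62 of 120 found. Their calls were not followed in the alternative scalings or with libraries left out. Of the receptors and kinases, 7 of 8 were higher on BME day 5 than on BME + COL day 5 and none lower, against 30.3% and 45.3% of all genes, with a median log2 difference of 0.83 against -0.18 over all genes. Tyk2, a kinase of the type I receptor, had 6.22, 5.83 and 5.76 FPKM on BME day 5 and 2.07, 2.09 and 1.95 with collagen (1.5 ± 0.08, adjusted p = 3.41e-07). Jak2, a kinase of the interferon gamma receptor, had 4.83, 6.37 and 5.5 FPKM against 1.93, 1.92 and 1.84 (1.5 ± 0.10, adjusted p = 1.90e-06). The type I receptor chains Ifnar1 and Ifnar2 were higher by 0.79 and 0.46, and the type II chains Ifngr1 and Ifngr2 by 0.63 and 0.87. Jak1, used by both receptors, had 40.7 FPKM on BME day 5 and 41.9 with collagen and was not called. On BME + COL day 5 the same list had 7 lower of 8 relative to BME day 1, against 31.8% of all genes. From BME day 1 to BME day 5, 2 rose (25%, against 9.09% of all genes), Jak2 (0.62) and Ifngr1 (0.27).

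**Figure D4:**
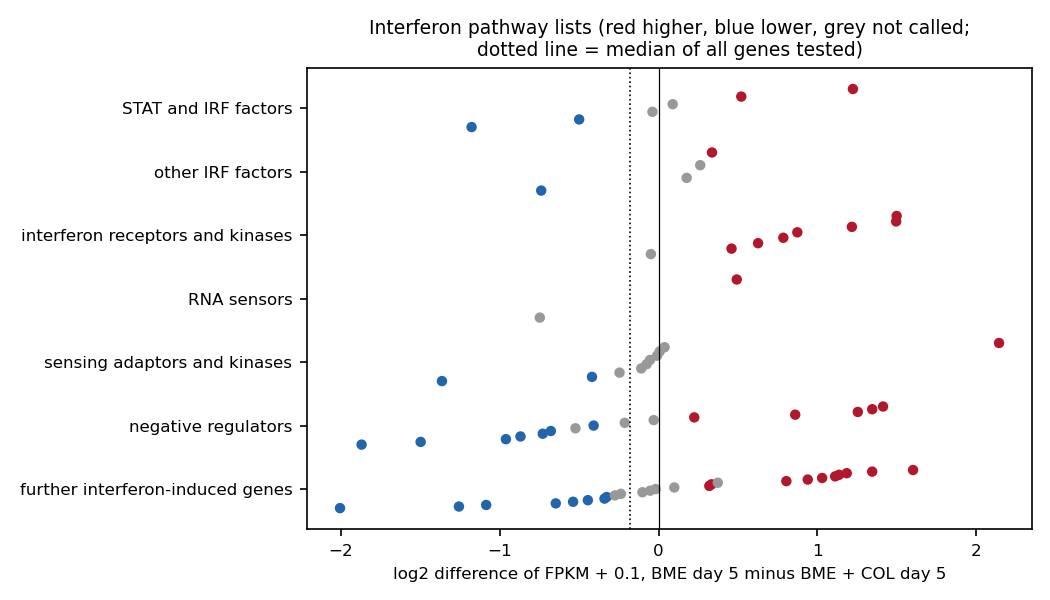
Points are single genes of 7 interferon pathway lists, placed by the log2 difference of BME day 5 to BME + COL day 5, with red and blue marking genes that passed the test and the dotted line the median of all genes tested. The receptors and kinases lie to the right with 7 of 8 higher, while the STAT and IRF factors, the negative regulators and the further induced genes lie on both sides of 0.

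Among 10 sensing adaptors and kinases, 1 (10%) was higher and 2 (20%) lower on BME day 5 than with collagen, both below the shares of all genes. Tlr3, the endosomal receptor for double-stranded RNA, had 4.35, 4.37 and 4.35 FPKM on BME day 5 and 1.01, 0.920 and 0.810 with collagen (2.14 ± 0.14, adjusted p = 1.49e-06). Mb21d1, the DNA sensor cGAS, was lower by a log2 difference of -1.36 ± 0.27 (adjusted p = 0.00112) and Mavs by -0.42 ± 0.08 (adjusted p = 0.00125). Tmem173, the adaptor STING downstream of cGAS, fell from 15.1 ± 1.86 FPKM on BME day 1 to 8.58 ± 0.78 on BME day 5 (SD, n = 3; -0.81 ± 0.10, adjusted p = 0.00114). Of 25 further induced genes 10 (40%) were higher and 8 (32%) lower on BME day 5 than with collagen, where all genes gave 30.3% and 45.3%, with Parp10 at 1.60 and Irgm1 at 1.34 among the higher and Lgals9 at -2.0 and Psmb10 at -1.26 among the lower. Of 15 negative regulators 5 (33.3%) were higher, among them Rnf125 (1.41) and Socs2 (1.34), and 7 (46.7%) lower, both near the shares of all genes, among them Ptpn6 (-1.87) and Trim27 (-1.50).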

How the data were processed

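RNA from D2.0R cells was sequenced on a HiSeq2500, with 3 libraries per group. Trimmomatic 0.30, TopHat2 2.0.8, CASAVA 1.8.4 and Partek appear in the submitters' notes on processing, as do the builds mm9 and NCBIM37. The authors deposited FPKM per RefSeq transcript, written by Cufflinks, whose version is not given in the sources used here, nor is the strand setting. Partek's own test could not be run from these values.

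FPKM were summed per gene, and those averaging 1 FPKM or more were fitted on log2(FPKM + 0.1), which understates changes of low genes, with limma 3.58.1 in R 4.3.3 (trend, 3 group means, 6 residual degrees of freedom), two-sided, with Benjamini-Hochberg adjustment over all 10497 genes and a threshold of 0.05. The spread of each gene was estimated over all 3 groups, so each standard error also holds the spread of the group outside the contrast. Folds are ratios of mean FPKM. The fit was tested on simulated data. Motifs were searched in NCBIM37. Replicates are described as biological. No source used here says whether their letters mark a shared day. Deviations of same-letter libraries from their group means correlated at -0.23 to 0.10, so the libraries were not paired. Depth is known only as aligned bases. For single-transcript members the Cufflinks interval had a median half-width of 28.5% of the value at 0.1 to 1 FPKM and 4.79% from 20 FPKM.

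The members and lists were chosen with earlier results of these data known. Values in every library were planned for factors, sensors and called members averaging 5 FPKM or more, and for other pathway genes up to 2 rises and 2 falls per list and comparison. Dtx3l, Socs1, Ifit1, Ifit2, Oas1a, Oasl1, Oasl2, Trim25, Sp100, Xaf1, Ifi35, Gbp2, Gbp3, Parp14, Usp18, Rsad2, Mx1, Mx2, the receptor chains and Jak1 were named beyond that. Alternatives were other pseudocounts, filters and scalings, fewer libraries, a replicate block and the most abundant transcript.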

Additional observations from a re-analysis of the deposited data

How the results depend on the processing

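Of 35 calls of interferon response genes, 22 were kept in every alternative in which the gene was tested and 13 were lost in some, and none changed sign. The 5 FPKM minimum leaves 14 of the 29 genes, so calls of the others, among them Stat2, Gbp2, Parp14, Dtx3l, Ifit2 and Xaf1, had no value there. A difference turned and passed the test only for genes without a call before: between BME day 5 and BME + COL day 5, Irf2 was at 0.31 as TPM and 0.33 without genes shorter than 300 nt, and Ifi35 at 0.31 and 0.33; between the BME days, Ifit2 was at 0.29 without BME day 5 replicate b and ran from -0.24 to 0.29 as each library was left out. The causes were not tested.

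For BME day 5 against BME + COL day 5, 2 genes were higher (14.3%, against 26.1% of all genes) and 5 lower (35.7%, against 51.6%) at that minimum. As TPM or without short genes 15 were higher (51.7%, against 46.3% and 48.4% of all genes) and 5 lower (17.2%, against 31.7% and 30.9%). Leaving out each library in turn gave 7 to 12 higher (24.1% to 41.4%, against 27.8% to 34.4% of all genes). Lower were then 6 to 8 (20.7% to 27.6%, against 41.5% to 46.2%). For BME day 5 against BME day 1, 3 were higher without a filter (7.89%, against 7.18% of all genes) or with median-ratio scaling (10.3%, against 18.7%), 2 without short genes (6.9%, against 19.2%) and 0 at the 5 FPKM minimum (against 7.67%). Lower were 3 as TPM, with median-ratio scaling, quantile normalization or a replicate block, 2 at the 5 FPKM minimum or with the most abundant transcript and 0 with only the 6 libraries compared. All-gene shares of lower calls in these fits ran from 17.5% to 26.2%, apart from 5.89% with the 6 libraries, which called 1070 genes in all against 3281. Leaving out 1 library gave 1 to 4 higher (3.45% to 13.8%, against 5.08% to 12.1% of all genes). Lower were then 1 to 3 (3.45% to 10.3%, against 9.7% to 30.9%), with 1551 to 4228 genes called in all. For BME + COL day 5 against BME day 1, 2 were higher (14.3%, against 39% of all genes) and 3 lower (21.4%, against 28.4%) at the 5 FPKM minimum. Lower were 12 as TPM or without short genes (41.4%, against 46.4% and 46.3%) and 11 with median-ratio scaling (37.9%, against 36.7%). Leaving out 1 library gave 4 to 10 higher (13.8% to 34.5%, against 28.9% to 40.6% of all genes). Quantile normalization ended 7 calls. Between the day 5 groups these were Socs1 (adjusted p = 0.0797), Irf9, Ddx58, Bst2 and Sp100. Between BME + COL day 5 and BME day 1 they were Gbp2 (0.744) and Adar (0.0832). The replicate block ended 1 call, that of Eif2ak2, and added 2. Between the day 5 groups it gave 10 higher (34.5%, against 29.8% of all genes) and 8 lower (27.6%, against 44.9%).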
